A study of Arabidopsis thaliana with 18 samples.

Results

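The 46 genes described here are nuclear genes of Arabidopsis thaliana for the light-harvesting antenna, the photosystems and the small subunit of Rubisco, out of 32833 genes in the deposited expression files. They were listed by gene identifier from known function, in a choice made with earlier results of these data known: 9 genes of the LHCII trimers (LHCB1.1 to LHCB1.5, LHCB2.1 to LHCB2.3 and LHCB3), 5 genes of the minor antenna of photosystem II (LHCB4.1 to LHCB4.3, LHCB5 and LHCB6), 6 genes of the photosystem I antenna (LHCA1 to LHCA6), 12 nuclear subunits of photosystem I (PSA), 10 nuclear proteins of photosystem II (PSB) and 4 RBCS genes. RNA sequencing was carried out on whole seedlings of the Col-0 ecotype at 2 weeks of age. Wild type (WT) was compared with the bro1-1 mutant, which carries a T-DNA in intron 6 of AtBro1 (AT1G73390), a gene for a Bro1-like domain protein. Seedlings of each genotype were left untreated (mock) or exposed to ABA at 100 µM, and ABA-treated seedlings were taken at 2 h and at 4 h. Each of the 6 groups holds 3 libraries, described in the labels as independent biological replicates. All groups were grown on medium with sucrose. The mutant is represented by 1 insertion line. The hour of harvest of the mock seedlings is not given in the sources used here.

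Light absorbed by chlorophyll on the antenna proteins is passed to the reaction centres of the photosystems, which drive electron transport across the thylakoid membrane. The energy so gained runs the Calvin cycle, in which Rubisco fixes carbon dioxide. The reaction centre proteins and the large subunit of Rubisco are encoded in the chloroplast, whereas the proteins treated here are made from nuclear genes and imported. Transcripts of the nuclear set are among the most abundant of a green leaf, follow light and the circadian clock, and are known to fall when leaves are stressed or senesce. ABA is the hormone that closes stomata and switches on drought-responsive genes.

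Several members lie next to near copies of themselves. On TAIR10.1, LHCB1.1, LHCB1.2 and LHCB1.3 lie within 6835 bases of chromosome 1 (10472280 to 10479114), LHCB1.4 and LHCB1.5 within 3395 bases of chromosome 2 (14522524 to 14525918), and LHCB2.1 and LHCB2.2 within 25247 bases of chromosome 2 (1799234 to 1824480). RBCS1B, RBCS2B and RBCS3B lie within 8333 bases of chromosome 5 (15376988 to 15385320). The 250 bases before the annotated gene start are shown for the LHCB2 genes, the members with the most negative log2 fold changes between 2 h and 4 h of ABA in WT, and for LHCB1.4, the LHCII gene with the least negative one. Capitals mark 3 short motifs on either strand: the box spelled CCAAT, the plant light-response motif spelled GATAA, and the G-box, spelled CACGTG.
LHCB2.1 (chr2:1824481-1824730, minus strand): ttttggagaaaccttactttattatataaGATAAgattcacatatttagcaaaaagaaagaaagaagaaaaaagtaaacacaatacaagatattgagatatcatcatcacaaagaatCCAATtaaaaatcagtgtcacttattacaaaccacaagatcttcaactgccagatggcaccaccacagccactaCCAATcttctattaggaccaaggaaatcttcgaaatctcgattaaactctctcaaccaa
LHCB2.2 (chr2:1800473-1800722, minus strand): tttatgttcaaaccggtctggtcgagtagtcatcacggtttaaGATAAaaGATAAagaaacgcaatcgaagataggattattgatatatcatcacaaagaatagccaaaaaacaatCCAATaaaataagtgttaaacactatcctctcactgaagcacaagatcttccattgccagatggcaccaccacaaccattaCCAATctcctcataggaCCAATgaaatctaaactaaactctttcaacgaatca
LHCB2.3 (chr3:10255656-10255905, plus strand): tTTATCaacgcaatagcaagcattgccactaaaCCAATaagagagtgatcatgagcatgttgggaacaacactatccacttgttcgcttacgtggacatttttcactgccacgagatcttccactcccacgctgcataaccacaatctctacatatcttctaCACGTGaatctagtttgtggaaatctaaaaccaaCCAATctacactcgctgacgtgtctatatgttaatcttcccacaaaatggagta
LHCB1.4 (chr2:14524357-14524606, plus strand): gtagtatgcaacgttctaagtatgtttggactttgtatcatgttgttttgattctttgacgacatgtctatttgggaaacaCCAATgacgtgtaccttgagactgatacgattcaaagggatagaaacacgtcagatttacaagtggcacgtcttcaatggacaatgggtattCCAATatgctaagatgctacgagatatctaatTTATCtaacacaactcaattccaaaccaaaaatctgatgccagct

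The LHCB2.1 and LHCB2.2 stretches were 65.8% identical in a global alignment, LHCB2.1 and LHCB2.3 were 50.2% identical, and LHCB2.1 and LHCB1.3, a gene of the other trimer family, were 48.7% identical. LHCB2.3 alone among the 9 LHCII genes held the G-box, at 88 bases before its start. All 9 LHCII genes held CCAAT within 250 bases, and 8 held GATAA, LHCB3 being the exception. Over the whole set, CCAAT was found before 29 of 46 members (63.0%) against 46% of 27443 protein-coding genes, GATAA before 35 (76.1% against 54.9%), ACGTG before 18 (39.1% against 22.9%) and the G-box, whose letters include ACGTG, before 9 (19.6% against 6.5%). The I-box GATAAG, which includes GATAA, was found before 10 members (21.7% against 12.3%). The evening element AAATATCT was found before 1 member, LHCA5 (2.2% against 4.8%). LHCB1.4 shared both CCAAT and GATAA with the LHCB2 genes.

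All 46 members were tested in every comparison, and the lowest count of a member in a library was 84. Totals ran from 15568034 to 17853178 counts per library. RAB18, RD29A and RD29B, genes induced by ABA, were called higher after ABA in each of the 4 comparisons with mock. AtBro1 itself had 18.5, 11.9 and 11.2 TPM (a level scaled for transcript length and library) in WT mock and 10.4, 8.02 and 10.4 TPM in bro1-1 mock. It reached 380, 386 and 279 TPM in WT and 143, 119 and 131 TPM in bro1-1 in the 2 h ABA group, where it was called lower in the mutant (log2 fold change −1.38, SE 0.149, adjusted p = 0.0440 by edgeR). After 4 h the values were 365, 243 and 391 TPM in WT and 104, 125 and 110 TPM in bro1-1 (−1.51, SE 0.260, adjusted p = 0.199 by edgeR). Reads assigned to AtBro1 therefore remained countable in the insertion line, whereas the paper reported AtBro1 transcripts as absent from it by RT-PCR. Counts per gene do not tell an intact transcript from a part of one.

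The members were among the most abundant transcripts of these seedlings. Of the 10 genes with the highest mean TPM over the 18 libraries, 7 were members, and of the 50 highest, 27 were. LHCB1.3 (AT1G29930), an LHCII trimer gene, led with a mean of 15010 TPM, followed by LHCB1.5 (AT2G34420) at 9865 TPM, the Rubisco gene RBCS1A (AT1G67090) at 9748 TPM, PSBR (AT1G79040) of photosystem II at 8154 TPM and RBCS3B (AT5G38410) at 6380 TPM. At the other end were LHCA5 (AT1G45474) at 247 TPM, LHCB2.3 (AT3G27690) at 213 TPM, LHCA6 (AT1G19150) at 70.3 TPM and LHCB4.3 (AT2G40100) at 20.9 TPM. LHCA5 and LHCA6 are known for linking photosystem I to the NDH complex. In whole seedlings, fewer cells of a type and less RNA per cell cannot be told apart.

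Together the 46 genes held 16.3%, 7.67% and 18.2% of all TPM in the WT mock libraries, 13.6%, 13.7% and 14.7% in the 2 h libraries, and 8.73%, 9.20% and 7.67% in the 4 h libraries. In bro1-1 the shares were 18.02%, 17.6% and 11.5% at mock, 11.2%, 15.9% and 15.4% at 2 h and 10.8%, 11.4% and 7.56% at 4 h. The WT libraries at 2 h and 4 h did not overlap, and WT mock overlapped both through 1 library. That library, WT mock replicate 2, lay below both other WT mock libraries for 46 of 46 members, by a median of −1.70 on the log2 scale, and bro1-1 mock replicate 3 lay below its mates for 44 of 46, by −1.17. LHCB1.4 was the 1 member above both mates in that mutant library, with 2343, 2331 and 3276 CPM (normalised counts, scaled by library size and TMM factor but not by transcript length) in replicates 1 to 3 of bro1-1 mock. Lower values within their groups were also found in bro1-1 at 2 h replicate 1 (46 of 46 members, −0.58) and bro1-1 at 4 h replicate 3 (43 of 46, −0.69).

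The mock libraries that stood apart also differed in genes of the circadian clock. TOC1, an evening clock gene, had 40.97, 131 and 61.6 TPM in WT mock and 67.7, 82.0 and 134 TPM in bro1-1 mock, highest in replicate 2 and in replicate 3 respectively. LUX, of the evening complex, had 40.1, 112 and 45.1 TPM in WT mock and 47.0, 51.7 and 76.0 TPM in bro1-1 mock. CCA1, a morning clock gene, had 21.2, 4.80 and 7.05 TPM in WT mock and 7.24, 8.49 and 1.01 TPM in bro1-1 mock, lowest in those same libraries. The part of the clock genes, or of the hour of harvest, in the values of the members was not tested. Calls and medians in the comparisons with mock are therefore given with and without the library that stands apart. It stood out in the members' own values, so that leaving it out raises their mock level and favours calls of lower levels after ABA, and the calls made without it are given as a description. Over all genes, 4.91% lay beyond both mates by more than 1 on the log2 scale in WT mock replicate 2 and 4.36% in bro1-1 mock replicate 3, against 2.45% or less in the other mock libraries.

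**Figure D1:**
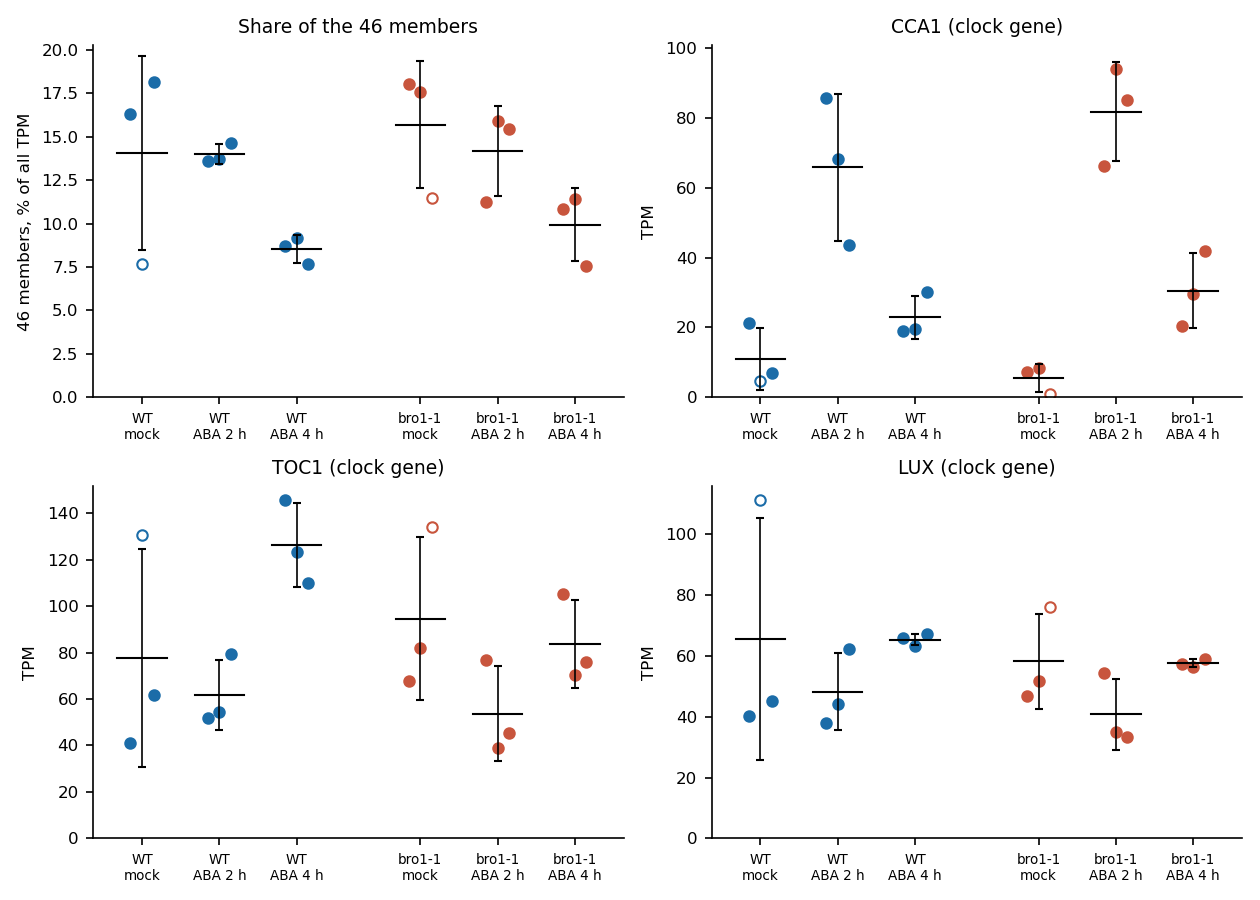
Share of all TPM held by the 46 members (percent) and levels of the clock genes CCA1, TOC1 and LUX (TPM) in each library of the 6 groups. Points are libraries, lines are group means and bars are SDs of 3 libraries, and open circles are the mock library of each genotype that stands apart. The open WT circle lies at 7.67% and the other WT mock libraries at 16.3% and 18.2%.

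The first question was whether these genes differed between ABA and mock within each genotype. After 2 h in WT no member was called by edgeR (a call needs an adjusted p below 0.05 and a log2 fold change above 1 or below −1), against 17.7% of 19725 genes tested. No member had an unadjusted p under 0.05, against 39.8% of genes, and DESeq2 called 0 members against 18.5% of genes. The median log2 fold change of the members was 0.28 and that of all genes tested −0.04, and the member median turned to −0.05 without WT mock replicate 2. After 4 h in WT 1 member was called, LHCB4.2 (AT3G08940), which was lower, against 20.9% of genes called in either direction and 7.41% called lower. LHCB4.2 encodes a form of CP29, a minor antenna protein that ties the LHCII trimers to the photosystem II core.

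LHCB4.2 had 1279, 610 and 1581 CPM in WT mock and 499, 468 and 478 CPM after 4 h, so that the groups did not overlap. Its log2 fold change was −1.23 (SE 0.373, adjusted p = 0.0408 by edgeR). This call was lost when any library other than WT mock replicate 2 was left out, with no member called. Of the 46 members, 39 had a log2 fold change below 0 at 4 h, and the median was −0.46 against −0.02 for all genes tested. Without WT mock replicate 3 the member median was −0.26. Of 10 root markers, 10 also lay below 0 at both times in WT, with medians of −0.81 at 2 h, where PRP3 was called (−1.64), and −1.13 at 4 h, where IRT1 was called (−6.57, a fitted value and no bound, with IRT1 at 0 in 2 of the 3 libraries at 4 h). Their summed level ran from 46.9 to 127 TPM in WT mock, from 29.98 to 45.1 TPM at 2 h and from 22.4 to 57.1 TPM at 4 h, and their part in the values of the members was not tested.

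LHCB3 (AT5G54270), a protein of the LHCII trimers, had the most negative log2 fold change at 4 h in WT. It had 2487, 451 and 3370 CPM at mock and 792, 913 and 687 CPM after 4 h, and mock replicate 2 lay below all of the treated libraries (log2 fold change −1.36, SE 0.647, adjusted p = 0.147 by edgeR). LHCA5, which lay at the other end, had 154, 56.0 and 128 CPM at mock and 200, 143 and 178 CPM after 4 h (0.66, SE 0.357, adjusted p = 0.195 by edgeR).

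In bro1-1 no member was called after 2 h, against 21.9% of 19756 genes tested, nor after 4 h, against 23.8% of 19958 genes. An unadjusted p under 0.05 was found for 1 member at 2 h, against 49.3% of genes, and for 6 at 4 h, against 49.6% of genes. DESeq2 called 0 members at 2 h, against 20.8% of genes, and 2 at 4 h, against 22.7%. The median log2 fold change was −0.00 at 2 h, or −0.22 without bro1-1 mock replicate 3, and −0.55 at 4 h, with 40 of 46 members below 0 at 4 h. Of the 10 root markers, 7 lay above 0 at each time in bro1-1, with medians of 0.25 and 0.64. The 2 h and 4 h comparisons of a genotype share the same mock libraries.

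LHCB2.1 (AT2G05100), an LHCII trimer gene whose product is phosphorylated in state transitions, had the highest log2 fold change at 2 h in both genotypes. It had 1592, 135 and 1041 CPM in WT mock and 1836, 1786 and 2345 CPM after 2 h (1.11, SE 0.738, adjusted p = 0.302 by edgeR). In bro1-1 it had 1125, 1022 and 131 CPM at mock and 1873, 2719 and 2554 CPM after 2 h (1.64, SE 0.674, adjusted p = 0.0880 by edgeR). In both genotypes the groups did not overlap, and neither difference was called.

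RBCS1B (AT5G38430), a Rubisco small subunit gene of the chromosome 5 cluster, lay lowest at 2 h in both genotypes. It had 954, 154 and 549 CPM in WT mock and 323, 339 and 338 CPM after 2 h (−0.73, SE 0.560, adjusted p = 0.368 by edgeR). In bro1-1 it had 590, 856 and 204 CPM at mock and 191, 447 and 417 CPM after 2 h (−0.65, SE 0.516, adjusted p = 0.348 by edgeR). Stretches of 100 bases shared with RBCS3B made up 7.4% of its transcript. The summed counts of RBCS1B, RBCS2B and RBCS3B, most of which came from RBCS3B, had a log2 fold change of 0.29 in WT and 0.10 in bro1-1 at 2 h.

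RBCS2B (AT5G38420) was lowest in bro1-1 at 4 h. Its values were 2025, 2526 and 622 CPM at mock and 708, 838 and 446 CPM after 4 h, so that mock replicate 3 fell among the treated libraries (−1.35, SE 0.497, adjusted p = 0.0609 by edgeR). RBCS1A, the most abundant gene of the family, had 11440, 11660 and 5269 CPM at mock and 7862, 8059 and 4661 CPM after 4 h in bro1-1.

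Without WT mock replicate 2, 15 members were called lower after 4 h in WT, against 6.55% of 20136 genes tested, and the median of the members became −0.85. They were LHCB1.1 (−1.86), LHCB3 (−1.84), LHCB1.2 (−1.70), LHCB4.2 (−1.54), LHCB5 (−1.45), LHCB2.3 (−1.37), LHCB2.2 (−1.32), LHCB6 (−1.24), LHCA3 (−1.21), PSAN (−1.21), PSAD2 (−1.19), LHCA1 (−1.15), LHCB1.3 (−1.12), LHCA4 (−1.10) and PSBP1 (−1.01), each as a log2 fold change. Of these 15, 12 encode antenna proteins and 3 encode subunits of a photosystem. No Rubisco gene was among them.

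Without bro1-1 mock replicate 3, 9 members were called lower after 4 h in bro1-1, against 8.01% of 20254 genes tested, and the median became −0.80. They were RBCS2B (−1.75), RBCS1B (−1.48), LHCB5 (−1.24), RBCS3B (−1.20), PSAD2 (−1.09), LHCA3 (−1.06), PSAD1 (−1.03), LHCB3 (−1.02) and LHCB1.2 (−1.01). RBCS genes made up 3 of these 9 calls. At 2 h the same omissions gave 1 member called lower in WT, RBCS1B (−1.18), against 5.82% of genes called lower, and 1 called higher in bro1-1, LHCB2.1 (1.16), against 14% of genes called higher.

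**Figure D2:**
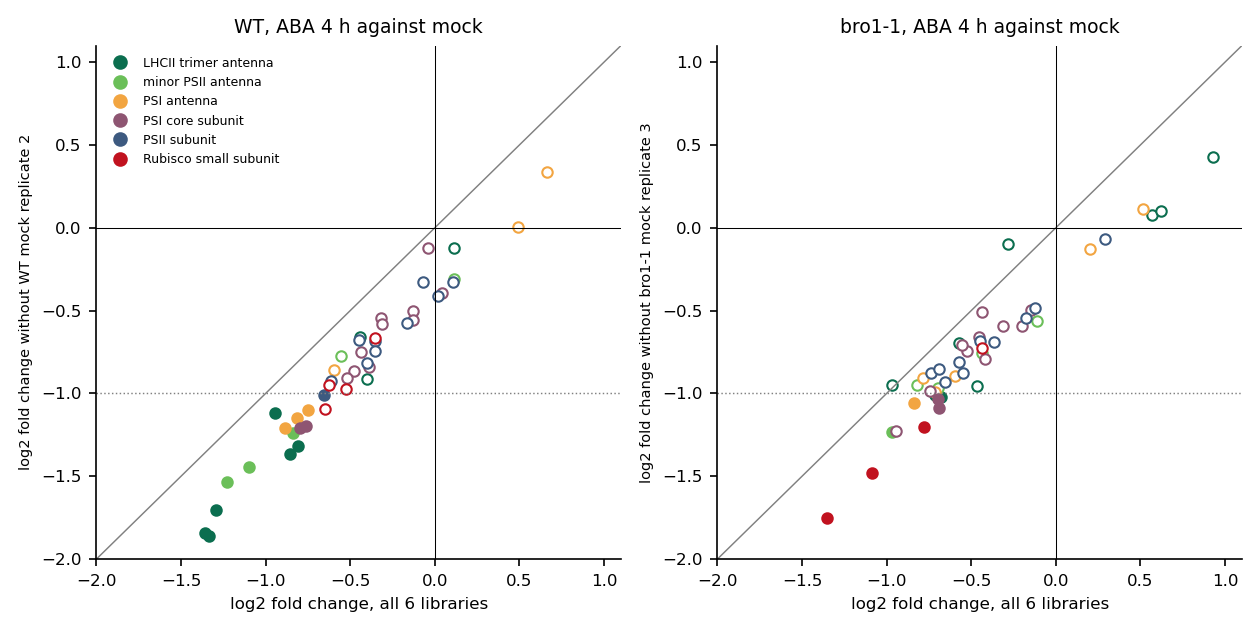
Log2 fold change of each member after 4 h of ABA against mock with all 3 mock libraries (horizontal axis) and without the mock library that stands apart (vertical axis), for WT and bro1-1. Points are the 46 members, filled where called lower without that library (15 in WT and 9 in bro1-1), and the diagonal marks equal values.

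The comparison of 4 h with 2 h of ABA uses no mock library. In WT 12 members were called lower and 0 higher by edgeR, against 3.67% of 19485 genes called in either direction and 1.55% called lower. An adjusted p under 0.05 with no fold threshold was reached by 29 members, all lower, against 3.64% of all genes. The log2 fold change was below 0 for 45 of 46 members, with a median of −0.76 against 0.00 for all genes tested, and 41 members had all 4 h libraries below all 2 h libraries, against 16.6% of genes. The groups overlapped for LHCB4.3, PSAE2, LHCB1.4, LHCA5 and RBCS1B. In a fit of all 18 libraries together no member was called, with a lowest adjusted p of 0.0584 by edgeR, and leaving out WT ABA 2 h replicate 2 or WT ABA 4 h replicate 1 gave 5 calls each.

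Antenna genes of photosystem II made up 8 of the 12 calls. Of the 9 LHCII genes 6 were called lower, with a median of −1.35, and of the 5 minor antenna genes 2 were, with a median of −0.94. Of the 6 photosystem I antenna genes 2 were called (median −0.88), of the 12 photosystem I subunits 1 (−0.69), of the 10 photosystem II proteins 0 (−0.72, with 6 of them under an adjusted p of 0.05) and of the 4 RBCS genes 1 (−0.59). The differences between these roles were not tested.

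The LHCB2 genes had the lowest fold changes of the set. LHCB2.3 had 165, 196 and 316 CPM at 2 h and 75.8, 60.5 and 61.0 CPM at 4 h (log2 fold change −1.77, SE 0.249, adjusted p = 0.00994 by edgeR). LHCB2.2 (AT2G05070) had 1047, 972 and 1500 CPM at 2 h and 357, 349 and 403 CPM at 4 h (−1.66, SE 0.211, adjusted p = 0.00741 by edgeR). LHCB2.1 had 1836, 1786 and 2345 CPM at 2 h and 651, 593 and 802 CPM at 4 h (−1.54, SE 0.205, adjusted p = 0.00872 by edgeR). For each gene the highest 4 h library lay below the lowest 2 h library. LHCB2.3 overlaps the opposite-strand gene AT3G27700 by 595 bases, and 36.3% of the 100-base stretches of its transcript lie in that gene, whose own log2 fold change was 0.11. LHCB2.1 and LHCB2.2 share 9.2% and 12.4% of their stretches with each other.

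Within the LHCB1 family the log2 fold changes ran from −1.49 to −0.26. LHCB1.1 (AT1G29920) fell from 2789, 3055 and 3466 CPM to 865, 1304 and 1129 CPM (−1.49, SE 0.221, adjusted p = 0.0120 by edgeR). LHCB1.2 (AT1G29910), its neighbour, fell from 2279, 2463 and 2481 CPM to 861, 1151 and 983 CPM (−1.26, SE 0.189, adjusted p = 0.0121 by edgeR). LHCB1.3, next to these genes and the most abundant member, had 11600, 13100 and 16500 CPM at 2 h and 6681, 7189 and 6689 CPM at 4 h, and its log2 fold change of −0.995 fell short of the fold threshold (SE 0.229, adjusted p = 0.0377 by edgeR). On chromosome 2, LHCB1.5 had a log2 fold change of −0.70 (SE 0.198, adjusted p = 0.0672 by edgeR). LHCB1.4 (AT2G34430) had 1272, 1913 and 2601 CPM at 2 h and 1848, 1438 and 1523 CPM at 4 h, overlapping groups (−0.26, SE 0.269, adjusted p = 0.579 by edgeR).

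Of the remaining antenna genes, LHCB3 (−1.35), LHCB5 (−1.10), LHCB6 (−1.07), LHCA3 (−1.04) and LHCA1 (−1.02) were called. LHCB5 (AT4G10340), the minor antenna protein CP26, fell from 2988, 3422 and 3822 CPM to 1739, 1586 and 1424 CPM (SE 0.192, adjusted p = 0.0179 by edgeR). LHCA1 (AT3G54890), part of the belt on the outer side of photosystem I, fell from 4088, 4271 and 4691 CPM to 2399, 1972 and 2050 CPM (SE 0.187, adjusted p = 0.0208 by edgeR). LHCA5 had 174, 162 and 190 CPM at 2 h and 200, 143 and 178 CPM at 4 h, with a log2 fold change of −0.01 (SE 0.159, adjusted p = 0.989 by edgeR).

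Among the subunits of photosystem I, PSAN (AT5G64040), a lumenal protein near the plastocyanin docking site, was called and fell from 976, 1329 and 1436 CPM to 591, 481 and 448 CPM (−1.29, SE 0.206, adjusted p = 0.0136 by edgeR). PSAO (AT1G08380), the most abundant of these 12 genes, had 2010, 2250 and 2311 CPM at 2 h and 1656, 1303 and 1530 CPM at 4 h (−0.54, SE 0.179, adjusted p = 0.0998 by edgeR). The PSAG, PSAH1 and PSAE1 transcripts share 55.8%, 47.0% and 24.0% of their 100-base stretches with a neighbouring or overlapping annotated gene, and their values are uncertain to that extent.

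Among the photosystem II proteins, PSBP1 (AT1G06680) of the oxygen-evolving complex had the lowest value, −0.97 (SE 0.18, adjusted p = 0.0212 by edgeR). PSBS (AT1G44575), the sensor of excess light in photoprotective quenching, had 1341, 1081 and 1148 CPM at 2 h and 671, 674 and 750 CPM at 4 h (−0.76, SE 0.168, adjusted p = 0.0336 by edgeR). PSBR, the most abundant, had 4828, 4705 and 4644 CPM at 2 h and 3733, 2628 and 3337 CPM at 4 h (−0.54, SE 0.202, adjusted p = 0.134 by edgeR). All 10 genes had 4 h libraries below all 2 h libraries.

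The log2 fold changes of the RBCS genes ran from −1.02 to 0.04. RBCS3B fell from 7953, 6747 and 6537 CPM to 3431, 3737 and 3262 CPM (−1.02, SE 0.200, adjusted p = 0.0243 by edgeR). RBCS1A had 9409, 10550 and 9784 CPM at 2 h and 6045, 7133 and 5495 CPM at 4 h (−0.66, SE 0.212, adjusted p = 0.0933 by edgeR). RBCS1B had 323, 339 and 338 CPM at 2 h and 428, 458 and 140 CPM at 4 h (0.04, SE 0.376, adjusted p = 0.956 by edgeR). Its 4 h libraries lay both above and below those at 2 h.

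In bro1-1 no member was called between 2 h and 4 h by edgeR, against 1.06% of 19815 genes, while 9 had an unadjusted p under 0.05, a share near the 18.9% of all genes. DESeq2 called 2 members, against 3.42% of genes. The median log2 fold change was −0.57, or −0.34 without bro1-1 ABA 4 h replicate 3, 45 of 46 members lay below 0, and 8 members had all 4 h libraries below all 2 h libraries, against 12.8% of genes. RBCS2B had 1179, 1922 and 1389 CPM at 2 h and 708, 838 and 446 CPM at 4 h (−1.17, SE 0.297, adjusted p = 0.0907 by edgeR). RBCS3B had 5122, 8244 and 7093 CPM at 2 h and 3545, 4418 and 1970 CPM at 4 h (−1.04, SE 0.368, adjusted p = 0.185 by edgeR). Replicate 1 was the lowest 2 h library for 46 of 46 members and replicate 3 the lowest 4 h library for 43 of 46.

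**Figure D3:**
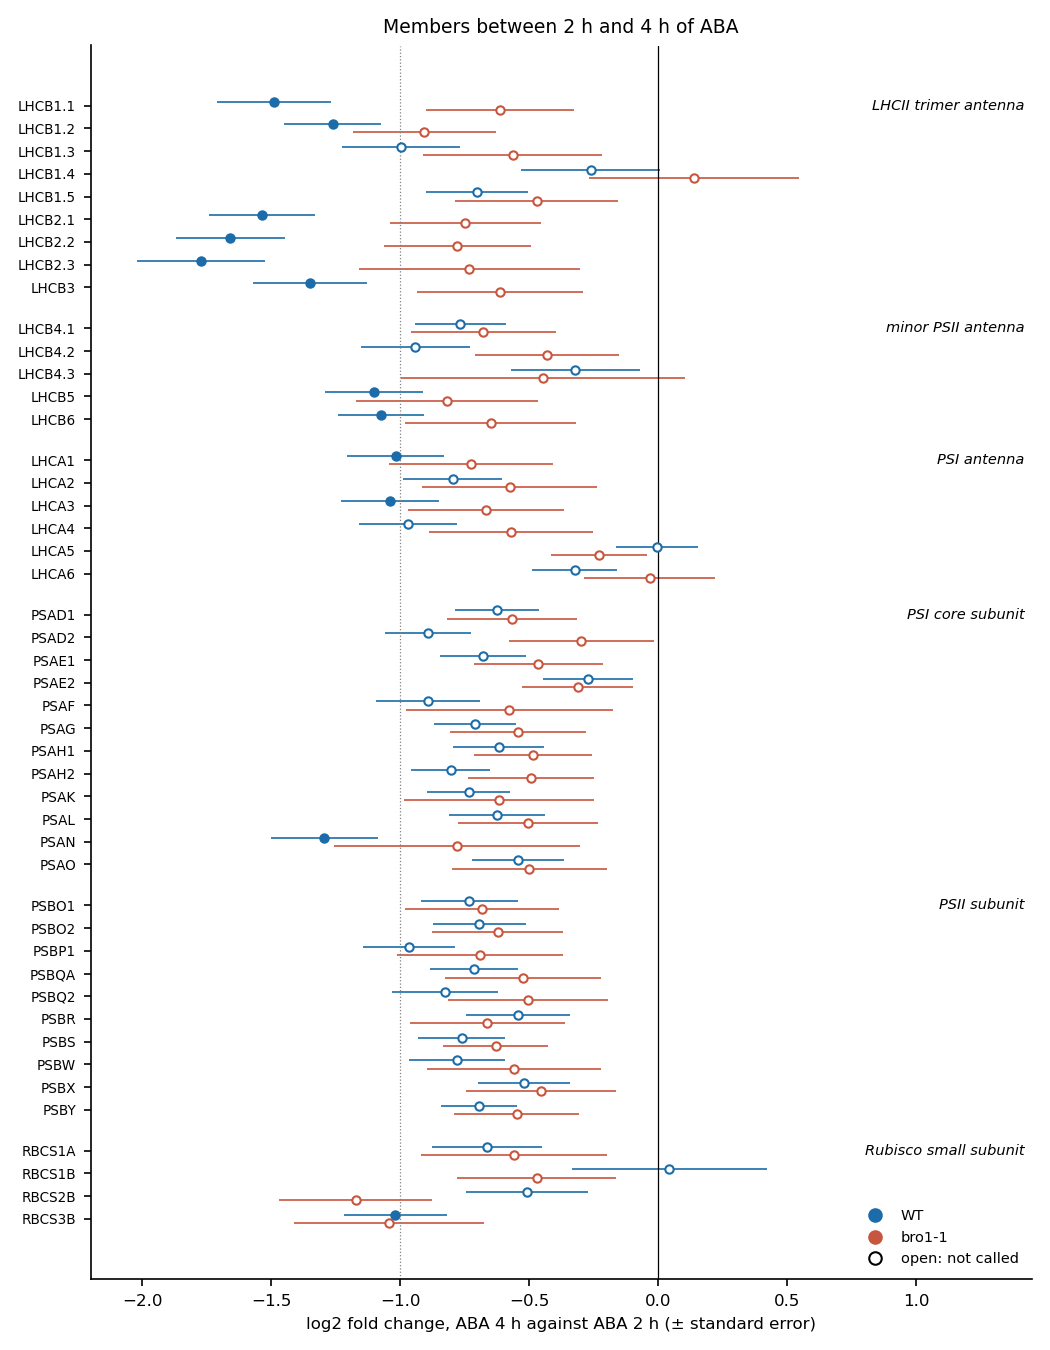
Log2 fold change of each of the 46 members between 4 h and 2 h of ABA in WT and in bro1-1, ordered by role. Bars are ± SE, filled points are called lower (12 in WT and 0 in bro1-1) and the dotted line marks a log2 fold change of −1.

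Whether the change between 2 h and 4 h differed between genotypes was tested as an interaction on the 12 libraries with ABA. No member was called by edgeR, with 0% of 20186 genes called. For 3 members the interaction had an unadjusted p under 0.05, against 3.12% of genes, and DESeq2 called 0. The interaction term was above 0 for 9 of 9 LHCII genes. That is, the change from 2 h was less negative in bro1-1, or above 0 in the case of LHCB1.4 (0.14). The median of the interaction term over the LHCII genes was 0.75, against 0.23 for the 46 members and −0.01 for all genes tested. This interaction was not refitted with single libraries left out. It was 1.04 for LHCB2.3 (SE 0.549), 0.89 for LHCB2.2 (SE 0.360), 0.88 for LHCB1.1 (SE 0.351) and 0.80 for LHCB2.1 (SE 0.356), each with an adjusted p of 0.996 by edgeR. For RBCS2B it was −0.66 (SE 0.397).

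The genotypes were then compared at each time. After 4 h of ABA no member was called by edgeR, against 0.0202% of 19801 genes, while 7 had an unadjusted p under 0.05, against 10.1% of genes, and DESeq2 called 3, against 1.36% of genes. In 7 members all bro1-1 libraries lay above all WT libraries, against 6.55% of genes: LHCB1.1, LHCB1.2, LHCB2.1, LHCB2.2, LHCB2.3, LHCB3 and LHCB4.2, which were the 7 members with an unadjusted p under 0.05. The median of the 46 members was 0.16, turning to −0.04 without bro1-1 ABA 4 h replicate 2, and that of the 9 LHCII genes was 0.80, with 9 of 9 above 0. These comparisons share their libraries with the comparison of 4 h with 2 h.

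LHCB2.3 had 75.8, 60.5 and 61.0 CPM in WT and 158, 316 and 85.8 CPM in bro1-1 at 4 h (1.52, SE 0.410, adjusted p = 0.330 by edgeR). LHCB2.2 had 357, 349 and 403 CPM in WT and 636, 1131 and 678 CPM in bro1-1 (1.15, SE 0.252, adjusted p = 0.269 by edgeR). LHCB2.1 had 651, 593 and 802 CPM in WT and 1111, 1964 and 1181 CPM in bro1-1 (1.07, SE 0.275, adjusted p = 0.32 by edgeR). The bro1-1 libraries lay above the WT ones for each gene and spread more widely. AT3G27700, which overlaps LHCB2.3, had a log2 fold change of −0.06 in this comparison.

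LHCB1.1 had 865, 1304 and 1129 CPM in WT and 1941, 2613 and 1908 CPM in bro1-1 at 4 h (0.98, SE 0.265, adjusted p = 0.330 by edgeR). RBCS1B lay at the other end of the set, with 428, 458 and 140 CPM in WT and 293, 250 and 218 CPM in bro1-1 (−0.42, SE 0.401, adjusted p = 0.738 by edgeR). Markers of root tissue were compared between these groups as well: of 10 root genes, 9 were tested and 9 lay above 0 in bro1-1, with a median of 1.33, none called, and their summed level ran from 22.4 to 57.1 TPM in WT and from 46.4 to 91.7 TPM in bro1-1. The part of the tissue composition in the values of the members was not tested.

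**Figure D4:**
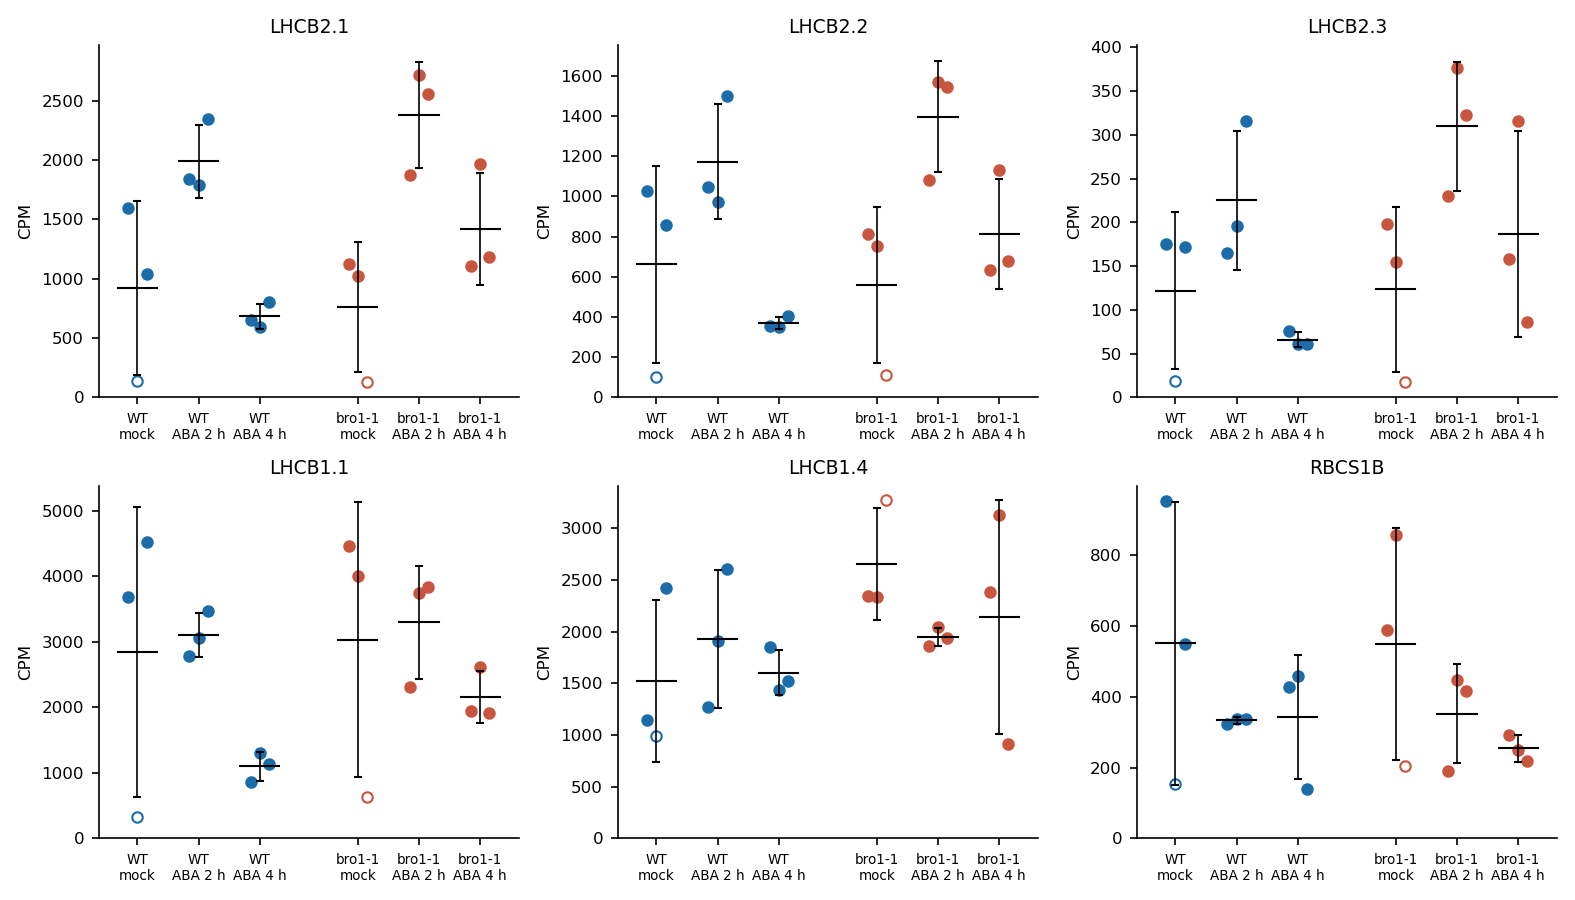
Normalised counts (CPM) of LHCB2.1, LHCB2.2, LHCB2.3, LHCB1.1, LHCB1.4 and RBCS1B in each library of the 6 groups. Points are libraries, lines are means and bars are SDs of 3 libraries, and open circles are the mock libraries that stand apart. For LHCB2.1 the WT libraries at 4 h lie between 593 and 802 CPM and those of bro1-1 between 1111 and 1964 CPM.

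No other genotype comparison called a member by edgeR or by DESeq2. At mock, 0.0153% of 19610 genes were called, no member had an unadjusted p under 0.05, and the median of the members was 0.20, or −0.17 without WT mock replicate 2 and 0.12 without both mock libraries that stand apart. After 2 h, 0.0308% of 19501 genes were called, no member had an unadjusted p under 0.05, and the median was −0.03, or 0.12 without bro1-1 ABA 2 h replicate 1. Over the 3 time points together, 0.0485% of 20637 genes were called, no member had an unadjusted p under 0.05, and the median was 0.10, or −0.00 without WT mock replicate 2. The interaction of genotype with ABA against mock called 0% of 20330 genes for the 2 h response and 0% of 20480 genes for the 4 h response, with no member at an unadjusted p under 0.05 and member medians of −0.24 and −0.07. Without WT mock replicate 2 these medians turned to 0.12 and 0.25, and without both mock libraries that stand apart they were −0.19 and 0.01. The standard error of the 4 h interaction for LHCB2.3 was 1.17 around a value of 1.52, so that a difference of that size was not detectable with these mock libraries. With all mock libraries, 5.95% of all genes had an unadjusted p under 0.05 in the 4 h interaction. Without both mock libraries that stand apart, no member was called for the 4 h interaction by edgeR.

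Genes that work with the members were followed with the same tests. Of 21 genes of chlorophyll synthesis, 7 were called lower and 0 higher between 2 h and 4 h in WT, against 1.55% of all genes called lower. Of these genes 21 of 21 lay below 0, with a median of −0.78. CHLP, which makes the phytyl tail and is among the most abundant of them, was one of these (−1.05, SE 0.165, adjusted p = 0.0131 by edgeR), and so was CRD1, the cyclase subunit (−1.02, SE 0.173, adjusted p = 0.0161 by edgeR). Of 8 genes of chlorophyll breakdown, 4 were called higher and 0 lower in WT, with a median of 0.97, against 3.67% of all genes called in either direction. NYC1, which begins the breakdown of chlorophyll b, rose (1.13, SE 0.266, adjusted p = 0.0404 by edgeR), as did PAO, which opens the chlorophyll ring (1.04, SE 0.253, adjusted p = 0.0444 by edgeR). In bro1-1 neither was called over this interval (NYC1 0.79, adjusted p = 0.250, and PAO 0.48, adjusted p = 0.185, by edgeR).

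Against mock, 4 of the 21 synthesis genes were called lower and 5 of the 8 breakdown genes higher after 4 h in WT. Of all genes, 7.41% were called lower and 20.9% in either direction. SGR1, the Mg-dechelatase that starts chlorophyll loss, had 14.3, 20.1 and 13.2 TPM at mock and 153, 96.0 and 136 TPM after 4 h (3.24, SE 0.270, adjusted p = 0.000271 by edgeR). In bro1-1 SGR1 was also called higher after 4 h (2.99, SE 0.249, adjusted p = 9.8e-05 by edgeR). PORA, a light-dependent protochlorophyllide reductase of dark-grown seedlings, had 2.06, 3.29 and 4.01 TPM at mock and 0.21, 0.42 and 0.05 TPM after 4 h (−3.57, SE 0.607, adjusted p = 0.00449 by edgeR).

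Between 2 h and 4 h in WT, of 14 genes of electron transport and ATP synthase 1 was called lower (median −0.55), PETE2 of plastocyanin (−1.16, SE 0.165, adjusted p = 0.0103 by edgeR). Of all genes, 1.55% were called lower in this comparison. Of 17 Calvin cycle genes 2 were called lower (median −0.55), among them RCA, Rubisco activase (−1.12, SE 0.204, adjusted p = 0.0198 by edgeR), and FBA1, an aldolase (−1.12, SE 0.158, adjusted p = 0.00994 by edgeR), the latter named after its value was seen. None of 9 LHC-like stress proteins, 14 assembly and state transition genes or 13 tested regulators was called by edgeR. The regulator ABI4 was at 0 in every library. Against mock at 4 h in WT, ELIP1, a stress-induced LHC-like protein, had 4.76, 0.37 and 1.70 TPM at mock and 43.7, 61.3 and 39.3 TPM after 4 h (4.55, SE 0.667, adjusted p = 0.00235 by edgeR). HY5, a transcription factor of light signalling, had 9.81, 10.4 and 5.32 TPM at mock and 34.3, 39.9 and 27.0 TPM after 4 h (2.19, SE 0.262, adjusted p = 0.00101 by edgeR).

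Clock genes also changed between 2 h and 4 h of ABA, the interval over which 12 members fell in WT. In WT, CCA1 (−1.59), LHY (−1.98) and PRR9 (−2.31) were called lower and ELF4 (2.04) was called higher of 11 clock genes. Of all genes, 3.67% were called in either direction. CCA1 had 85.6, 68.2 and 43.7 TPM at 2 h and 18.9, 19.7 and 30.04 TPM at 4 h in WT, and 66.3, 94.1 and 85.1 TPM at 2 h and 20.3, 29.5 and 41.8 TPM at 4 h in bro1-1. In bro1-1, CCA1 (−1.55), LHY (−2.51) and RVE8 (−1.56) were called lower, against 1.06% of all genes called in either direction. The summed level of the 11 genes ran from 537 to 611 TPM at 2 h and from 977 to 1195 TPM at 4 h in WT, and from 503 to 682 TPM and from 764 to 957 TPM in bro1-1. Against mock in WT, CCA1 (2.80), PRR9 (3.01) and ELF4 (1.67) were called higher at 2 h. Only ELF4 (3.74) was called at 4 h. Of all genes, 17.7% and 20.9% were called in either direction. In bro1-1 at 2 h, CCA1 (3.98), LHY (2.25) and PRR9 (4.03) were called higher and ELF3 (−1.09) lower, against 21.9% of genes. Without seedlings harvested at 2 h and 4 h without ABA, the time of day and the duration of ABA cannot be told apart. The same holds for ABA and the time of day in the comparisons with mock, whose hour of harvest is not given.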

How the data were processed

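Total RNA from 18 seedling samples was sequenced. The authors ran FastQC on the reads, BBDUK2 for trimming and Bowtie2 2.3.5.1 to remove ribosomal reads, and quantified genes with RSEM 1.2.30. The deposited values are expected counts per gene, which the authors did not normalise between libraries, and TPM, scaled within each library. The genome build, annotation release and strand setting are not given in the sources used here.

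Expected counts, 1.77% to 2.06% of which are not whole in a library, were rounded and tested with edgeR 4.0.16 in R 4.3.3 (filterByExpr, TMM factors, quasi-likelihood test) on the libraries of the groups compared. P-values were adjusted by the Benjamini-Hochberg method over all genes tested. A call needed an adjusted p below 0.05 together with a log2 fold change above 1 or below −1. The SE is the absolute log2 fold change divided by the square root of F. CPM uses TMM factors over 18 libraries. Alternatives used DESeq2 1.42.0, limma 3.58.1 on log2(TPM + 1) for genes of at least 1 TPM, RLE factors, no filter, no fold threshold, a replicate block, all libraries in 1 fit, summed near-identical members, and each library left out in turn. The fit for 4 h against 2 h in WT was tested on simulated counts, with the same dispersion for every gene and no library that stands apart. The other comparisons were not simulated. The comparison of the genotypes in their change from 2 h to 4 h, and the fits without both mock libraries that stand apart, were added after the data were seen. That comparison was not among those with each library left out in turn. Members and gene lists were chosen with earlier results of these data known.

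Named with values in every library were the most abundant member of each role and the members with the highest and lowest log2 fold change in each comparison of ABA with mock. All members could be named. In other lists the rule took the genes with the highest and lowest log2 fold change at 4 h against mock in WT and the 2 most abundant, and any gene of the clock, root, ABA and AtBro1 lists. The other genes named were chosen after their values were seen. Positions and sequences were read from the TAIR10.1 genome and its RefSeq annotation, in which 46 of 46 members were found by identifier. Shared stretches are windows of 100 bases of annotated transcripts that occur in another gene on either strand.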

Additional observations from a re-analysis of the deposited data

How the results depend on the processing

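Counts of called members depended on the fit. For 4 h against mock in WT, where 1 member was called against 20.9% of genes, DESeq2 called 4, the fit of all 18 libraries 4 and the replicate block 0. For 4 h against mock in bro1-1, 0 were called against 23.8% of genes. There DESeq2 called 2, against 22.7% of genes, the replicate block 2, the fit of all 18 libraries 1 and limma on log2(TPM + 1) 1. Where no share of all genes is given for a fit, its count shows only how calls depended on the fit. For 4 h against 2 h in WT, with 12 called, dropping the fold threshold gave 29 and the fit of all 18 libraries 0. DESeq2 called 2 members for 4 h against 2 h in bro1-1, against 3.42% of genes, and 3 for bro1-1 against WT at 4 h, against 1.36%, where edgeR called 0. Why these fits differ was not tested. Where RBCS1B, with −0.73 in WT and −0.65 in bro1-1 at 2 h against mock, was replaced by the summed counts of RBCS1B, RBCS2B and RBCS3B, the log2 fold change of the sum was 0.29 and 0.10, which is that of the family, mostly RBCS3B, and not of RBCS1B alone. With each library left out in turn, the members called ran from 0 to 1 at 2 h in WT and in bro1-1, from 0 to 15 at 4 h in WT, from 0 to 9 at 4 h in bro1-1 and from 5 to 12 for 4 h against 2 h in WT. The 15, the 9 and each 1 were reached without the mock library that stands apart. The median log2 fold change of the members kept its sign in each of these fits at 4 h against mock and at 4 h against 2 h in both genotypes. It changed sign with 1 library left out at 2 h against mock in both genotypes (from −0.05 to 0.51 in WT and from −0.22 to 0.17 in bro1-1), for bro1-1 against WT at mock (−0.17 to 0.48), 2 h (−0.15 to 0.12), 4 h (−0.04 to 0.35) and over the 3 time points (−0.00 to 0.17), and for the interactions with ABA at 2 h (−0.50 to 0.12) and 4 h (−0.32 to 0.25). Library numbers were not taken to pair the samples, since in no comparison did all 3 same-numbered pairs deviate together (correlations from −0.44 to 0.55). With 3 libraries per group this check cannot exclude a shared batch. The block moved no other count of calls by over 1.5 times. RLE factors moved the median of all genes by less than 0.1. The TPM scale moved it to −0.26 at 2 h and −0.18 at 4 h against mock in WT, where the members lay at 0.14 and −0.49.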
